A study of Rattus norvegicus with 30 samples.

Results

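The genes described here build or switch on the motile cilium, as read in the dorsal hippocampus of rats. They were chosen by name from the count table: every symbol that starts with Dnah, Dnai, Cfap, Rsph, Tekt or Drc followed by a digit, plus Foxj1, Ak7, Ccdc153, Tmem212, Spag6, Spag16 and Spag17, with at least 100 counts summed over the 30 libraries. The names matched 39 rows, and 36 of the 17455 genes in the table met the count minimum. Rsph14, with 140 counts, was the member nearest above the minimum, and Spag16, with 52 counts, was the row nearest below it. Cfap97d1 had 5 counts and Rsph4a had 0, and Spag17 was not analysed here. By role the 36 genes comprised 14 cilia and flagella associated (Cfap) genes, 6 radial spoke genes, 5 tektins, 3 genes of the nexin-dynein regulatory complex, 2 dynein intermediate chains, 1 dynein heavy chain, the central apparatus gene Spag6, the regulator Foxj1 and 3 others, Ak7, Ccdc153 and Tmem212. At least 9 further rows carry an older symbol of a gene that would match today, among them Wdr63 (now Dnai3), Wdr78 (now Dnai4) and Casc1 (now Dnai7), and were not members.

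The 30 libraries were polyA-selected RNA from snap-frozen dorsal hippocampus, and the study asked how a western diet acts on gene expression there in a rat model of Alzheimer's disease. Genotype was either TgF344-AD, called alzheimer in the labels, or wildtype. TgF344-AD rats carry mutated human transgenes, APP among them, under the mouse prion promoter, which is active in many cell types. Genotype, sex and diet (western or chow) gave 8 groups: 4 libraries each of male wildtype chow, male wildtype western, male alzheimer chow, male alzheimer western, female wildtype chow and female alzheimer chow rats, and 3 each of female wildtype western and female alzheimer western rats. The rats came in 2 cohorts of 14 and 16 libraries, each with all 8 groups, and cohort 1 held 1 library of each female western group. Ages are not given in the labels. The labels number the libraries from 1 to 30 and do not say in words that each is a separate animal, so the p-values measure the spread between these libraries.

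Motile cilia beat by the sliding of doublet microtubules. Dynein arms supply the force, radial spokes and the nexin-dynein regulatory complex time and limit it, a central pair of microtubules guides it, and tektins and many Cfap proteins line the inside of the doublets. Foxj1 is the forkhead transcription factor that switches on this set of genes in cells with motile cilia. In the brain such cells are above all the ependymal cells that line the ventricles and move cerebrospinal fluid, and choroid plexus epithelium carries related cilia. Neurons and astrocytes carry a single non-motile cilium, which shares some of the same parts. In bulk RNA, fewer cells of a type and less RNA per cell cannot be told apart, and this holds for every level below.

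Promoters are shown first because several of these genes moved together with Foxj1 from library to library, and because Foxj1 works beside RFX factors, which bind the X-box. The promoters with a match are mostly not those of the genes that tracked Foxj1 best. For 7 of the 36 genes there was no promoter sequence, so a gene without a match may not have been searched. Cfap161, with a correlation of 0.616, was among the 6 genes that passed with Foxj1 by both measures below. Tekt1 had 0.495, Drc1 0.289, Cfap20 0.135 and Cfap298 0.049. RefSeq promoters of build GRCr8, from 250 bases before to 50 bases after the annotated start, were matched for 29 of the 36 genes. The RFX core GTTGCCA, a single arm of the X-box, searched on both strands (the other strand reads TGGCAAC), was present in 5 of the 29 promoters, or 17.2%, against 4.86% of the 27457 genes with a promoter of that length in the table. These are the 5 promoters, each as 67 bases centred on the match, 5′ to 3′ on the gene's strand, with the match in capitals.
Cfap161: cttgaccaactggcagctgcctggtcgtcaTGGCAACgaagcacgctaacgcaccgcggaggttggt
Cfap20: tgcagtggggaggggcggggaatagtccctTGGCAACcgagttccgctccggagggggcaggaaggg
Cfap298: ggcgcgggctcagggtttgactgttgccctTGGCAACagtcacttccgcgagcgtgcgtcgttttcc
Drc1: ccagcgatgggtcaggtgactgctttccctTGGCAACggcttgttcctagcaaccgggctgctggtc
Tekt1: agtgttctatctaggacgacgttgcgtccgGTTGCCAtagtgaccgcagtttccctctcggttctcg
The windows lie at chr1:147177843-147177909 on the minus strand for Cfap161, chr19:9614796-9614862 on the plus strand for Cfap20, chr11:43677430-43677496 on the minus strand for Cfap298, chr6:31779240-31779306 on the minus strand for Drc1 and chr10:57479124-57479190 on the minus strand for Tekt1. Relative to the annotated start, the matches begin at position -58 in Cfap161, -152 in Cfap20, -84 in Cfap298, -20 in Drc1 and -39 in Tekt1. The match in Cfap298 is part of a full X-box, which 1 of the 29 promoters held (3.45%) against 1.07% of all genes. The forkhead core TGTTTAC, on either strand was in the promoters of Cfap20 and Tekt3, 2 of 29 (6.90%) against 4.13% of all genes, and its match in Cfap20 lies apart from the RFX core. A match describes these letters only.

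The libraries held 13931152 to 31418405 counts, with a median of 17761343, and no pair of libraries within a group differed by as little as counting error. The App row, which counts the transgene's RNA too, stood at 3137 to 3398 counts-per-million (CPM) in the 15 alzheimer libraries and at 1548 to 1782 in the 15 wildtype libraries, so no label went against its genotype. Of 13 hippocampal neuron markers, 12 had counts in all 30 libraries, while Spink8 was at 0 in 10 of them and Fibcd1 ran only from 0.0603 to 1.06 CPM. Prox1 of the dentate gyrus stood at 45.9 to 74.6 CPM and Wfs1 of CA1 at 619 to 994 CPM. Rarres2, an ependymal gene outside the cilium, was present at 6.43 ± 0.949 CPM (SD, n = 30). Choroid plexus markers summed to 25.6 to 100.7 CPM with a median of 36.1, with Ttr, the choroid's transport protein for thyroid hormone, at 0.764 to 54.6 CPM. The libraries highest in that sum were male alzheimer chow 30 at 100.7 CPM, female wildtype chow 20 at 70.4 CPM and female alzheimer western 11 at 49.2 CPM. Otx2, a defining factor of choroid epithelium, was listed at 0 in 29 of the 30 libraries.

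Foxj1 ran at 5.84 ± 1.74 CPM over the 30 libraries (SD), where CPM is scaled for composition by TMM factors and is not per length, so that no level is compared here between genes. It stood at 7.17, 6.92, 5.90 and 6.92 CPM in female alzheimer chow libraries, at 9.22, 3.39 and 6.11 in female alzheimer western, at 4.98, 7.0, 5.75 and 7.51 in female wildtype chow and at 3.34, 4.98 and 6.13 in female wildtype western. In males it stood at 5.75, 4.26, 4.73 and 5.40 CPM in alzheimer chow, at 4.59, 4.73, 3.10 and 4.65 in alzheimer western, at 6.35, 4.46, 4.17 and 9.24 in wildtype chow and at 6.74, 10.3, 5.14 and 6.35 in wildtype western. The group means ran from 4.27 ± 0.781 CPM (SD, n = 4) in male alzheimer western to 7.14 ± 2.23 (SD, n = 4) in male wildtype western libraries. In rising order between these lay female wildtype western (4.82 ± 1.40, n = 3), male alzheimer chow (5.03 ± 0.668, n = 4), male wildtype chow (6.06 ± 2.33, n = 4), female alzheimer western (6.24 ± 2.92, n = 3), female wildtype chow (6.31 ± 1.16, n = 4) and female alzheimer chow (6.73 ± 0.564, n = 4). Each step between neighbours in this order was smaller than the SD of one of the groups it separates.

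The dynein genes were all present in every library. Dnah1, an inner arm heavy chain, ran from 1.30 to 7.41 CPM with a median of 4.02. Dnai1 and Dnai2, intermediate chains of the outer arm, stood at 3.12 ± 0.709 and 0.875 ± 0.367 CPM (SD, n = 30). Of the regulatory complex, its scaffold Drc1 ran from 7.26 to 13.8 CPM and Drc7 from 0.216 to 3.34 CPM, a far wider relative range. Spag6, of the central apparatus, ran from 0.641 to 5.15 CPM with a median of 2.64. Ak7, the adenylate kinase of the cilium, ran from 0.598 to 6.30 CPM, and Tmem212, a membrane protein used as an ependymal marker, from 0.652 to 4.36. Ccdc153, which RefSeq names Drc12 in GRCr8, ran from 1.01 to 4.94 CPM.

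The radial spoke genes included Rsph1 and Rsph9 of the spoke head at 3.44 ± 0.651 and 8.42 ± 1.12 CPM, and Rsph3 of the stalk at 4.43 ± 0.575 (SD, n = 30). Rsph10b stood at 23.6 ± 3.62 CPM, and Rsph14 at 0.255 ± 0.148, too low for the tests. Rsph14 was listed at 0 in male alzheimer western 6, where 3 counts would be 0.180 CPM. The 5 tektins stood between 0.694 ± 0.287 CPM for Tekt3 and 3.81 ± 0.825 for Tekt1. The 14 Cfap genes held 77.7% of all member counts, and 5 of them, Cfap36, Cfap20, Cfap298, Cfap70 and Cfap410, held 68.1%. Cfap36 is an ARL3-binding protein also found in non-motile cilia, and it ran only from 129 to 153 CPM. Cfap206, which helps anchor spokes to the doublet, ran from no count in male alzheimer western 23, where 3 counts would be 0.161 CPM, to 1.99 CPM. A sum of member counts therefore mostly reads these 5 Cfap genes, and each gene is described by itself below. Reads of some members cannot be told from those of an overlapping gene, since the sources used here do not give the strand setting of the counting. For example, Cfap97 overlaps Snx25, Drc3 overlaps Tom1l2, Rsph1 overlaps Slc37a1 and Rsph14 overlaps Gnaz.

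**Figure D1:**
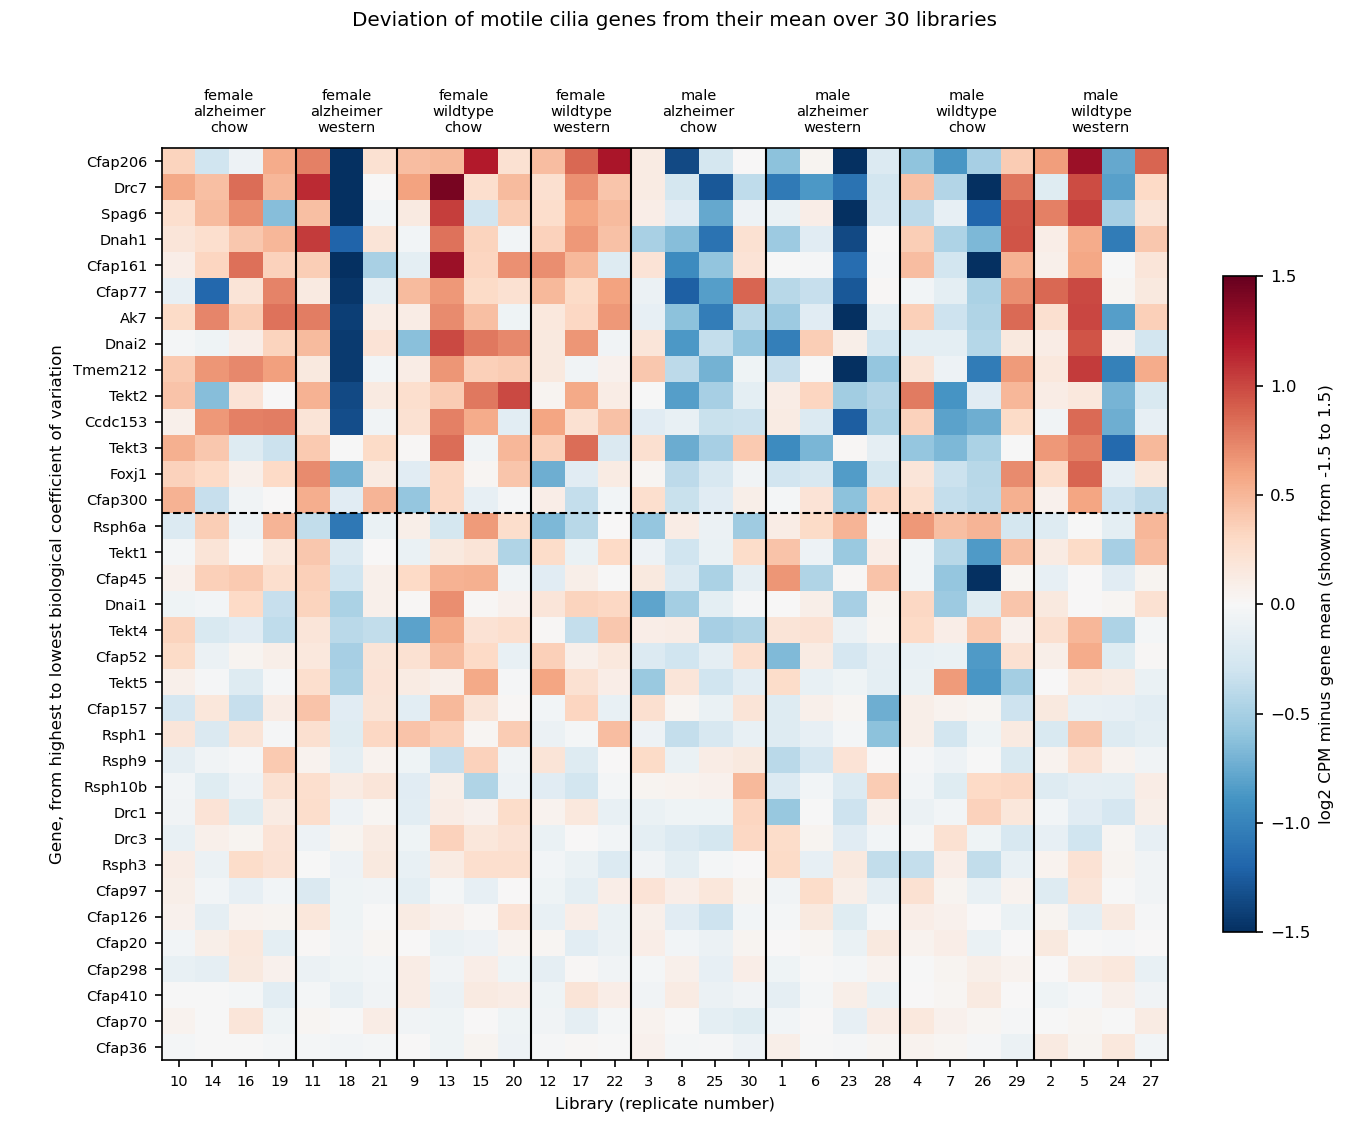
Log2 CPM of the 35 tested genes (rows, ordered by spread between libraries, widest at the top) in 30 libraries (columns, by group), each row minus its mean, with the dashed line at a spread of 20%. Above the line whole columns share a colour, with female alzheimer western 18 and male alzheimer western 23 low in nearly every row, and below it rows are pale.

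Many of these genes, though not all, varied widely between libraries of one group. The spread used here is the biological coefficient of variation, the relative SD between libraries of one group beyond counting error, as estimated by edgeR. Its median was 17.1% over the 35 tested genes and 6.70% over all 12547 tested genes, a contrast that does not take level into account. It was over 20% for 14 of the 35, against 10.4% of all tested genes, and 24 of the 35 lay above the value that edgeR's trend gives for genes of their level, as did 37.9% of all tested genes. The widest were Cfap206 at 40.2% (trend 20.97%), Drc7 at 38.3% (19.6%) and Spag6 at 35.0% (15.8%). Ak7 had 33.1% (14.3%), Dnah1 33.9% (13.7%) and Foxj1 itself 21.9% (11.8%). The narrowest were Cfap36 at 3.95% (5.15%), Cfap70, a central apparatus protein, at 4.98%, and Cfap410, also known from non-motile cilia, at 5.23%. Rsph3 at 8.69% (13.1%) and Cfap126 at 6.31% (10.1%) were narrow for their level, at percentiles 3.6 and 1.8 of 500 genes of like level. The line at 20% was drawn after the values were seen, with Cfap300 at 20.8% just inside and Rsph6a at 19.3% just outside, so the 14 genes above it are a description only. They are Cfap206, Drc7, Spag6, Dnah1, Cfap161, Cfap77, Ak7, Dnai2, Tmem212, Tekt2, Ccdc153, Tekt3, Foxj1 and Cfap300.

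**Figure D2:**
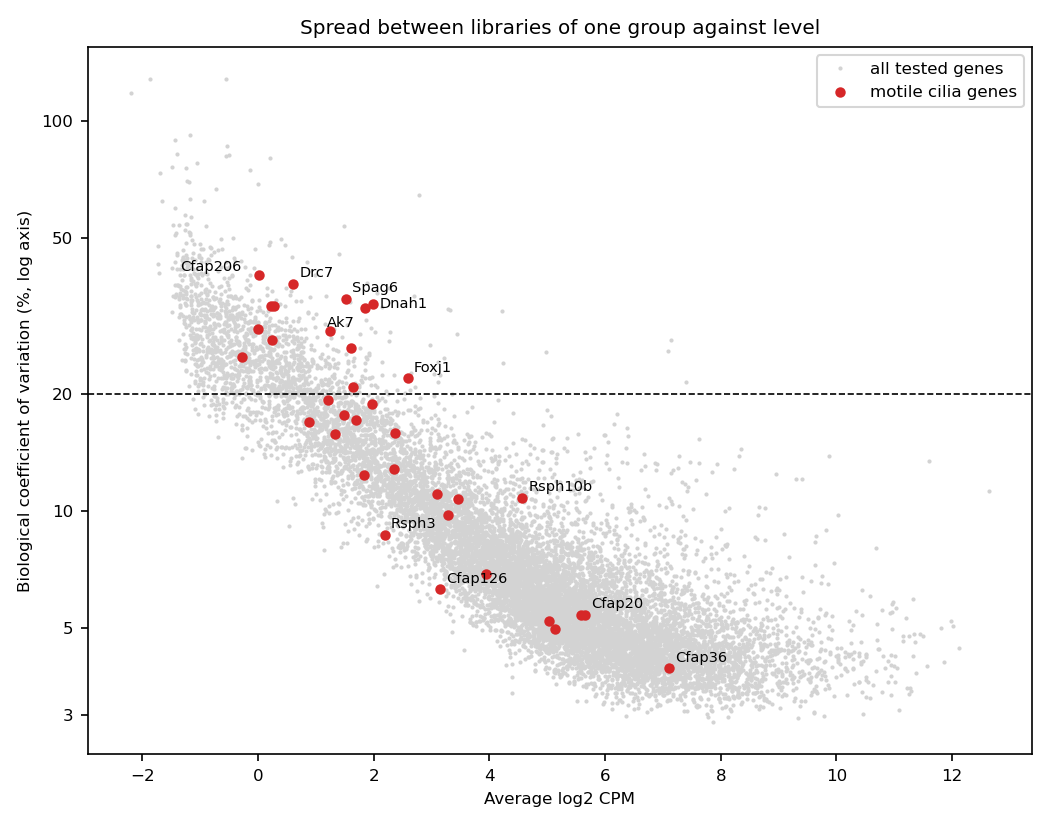
Biological coefficient of variation (percent, log axis) against average log2 CPM for each of the 12547 tested genes (grey) and the 35 motile cilia genes (red), with the dashed line at 20%. Of the red points 14 lie above the line, while Cfap36, Cfap70 and Cfap410 lie near the bottom.

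Among the 14 wide genes, 2 libraries stood apart. The mean deviation of the 14 genes from their own means, in log2 units, was lowest in female alzheimer western 18 at -1.25, where all 14 genes were below their mean and 12 were among their 5 lowest libraries. Male alzheimer western 23 followed at -1.16, with 11 of the 14 among their 5 lowest. At the other end, male wildtype western 5 stood at 0.832, with 13 of the 14 genes among their 5 highest libraries, and female wildtype chow 13 at 0.761. In libraries 18 and 23 Ak7 stood at 1.10 and 0.598 CPM, where the median of all libraries was 3.41. The mean deviation of the other 21 genes, chosen for their narrower spread, lay between -0.205 and 0.152, though single genes ranged further, such as Cfap45 from 0.791 to 4.14 CPM. Both low libraries are alzheimer rats on western diet, so the genotype results below are given with them and, for the main values, without them. Their choroid marker sums, 31.2 CPM in 18 and 29.8 in 23, lay inside the range of the other libraries but below the median of 36.1 over all 30. By mean log2 CPM of the same markers, libraries 18 and 23 ranked 21 and 24 from the highest. The high libraries, male wildtype western 5 and female wildtype chow 13, ranked 5 and 7. A relation of the 14 genes with the choroid markers was not tested.

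Over the 30 libraries Foxj1 tracked a subset of the genes. Ak7 had Pearson's r = 0.792 and Spearman's rho = 0.804 with Foxj1 on log2 CPM (permutation p = 1e-05 for both, the smallest that 100000 resamples can give, two-sided; adjusted over the 12546 other tested genes, p = 0.00965 and 0.0105). Tmem212 (r = 0.771, rho = 0.799) and Drc7 (r = 0.722, rho = 0.771) had the same p-values. Dnah1 had r = 0.722 and rho = 0.708 (permutation p = 2e-05 for both, adjusted p = 0.0157 and 0.0148). Spag6 had r = 0.696 and rho = 0.632 (permutation p = 2e-05 and 0.00022, adjusted p = 0.0157 and 0.0465), and Cfap161, a protein inside the doublet, r = 0.616 and rho = 0.631 (permutation p = 0.00022 and 0.00024, adjusted p = 0.0445 and 0.0478). These 6 of 34 genes, 17.6%, passed by both measures, against 0.391% of all genes. An r of 0.5 or more was reached by 14 of the 34, 41.2%, against 2.38% of all genes, and the sign was positive for 31. Cfap410 (r = -0.099) and Cfap36 (r = -0.080) had the lowest values. The median r was 0.383 over the 34 genes and -0.005 over all others. The relation was tested because earlier values showed these genes varying together, and the 2 values of each point come from the same library and share its depth.

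The same 6 relations were then taken without the 2 libraries farthest from the Foxj1 median, male wildtype western 5 and male alzheimer western 23. Ak7 then had r = 0.731, Tmem212 0.687, Drc7 0.686, Dnah1 0.673, Spag6 0.594 and Cfap161 0.566, and 10 genes still reached 0.5. Within cohort 1 (n = 14) and cohort 2 (n = 16) r was 0.801 and 0.844 for Ak7, 0.710 and 0.887 for Tmem212, 0.658 and 0.789 for Dnah1, 0.652 and 0.784 for Drc7, 0.621 and 0.807 for Spag6, and 0.408 and 0.767 for Cfap161. In both cohorts 25 of the 34 genes had a positive r, and 8 reached 0.5 in each. With group and cohort means removed, r for Ak7 was 0.835 and 16 genes reached 0.5. The share of all genes was not computed for any of these settings, so these counts are a description only.

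**Figure D3:**
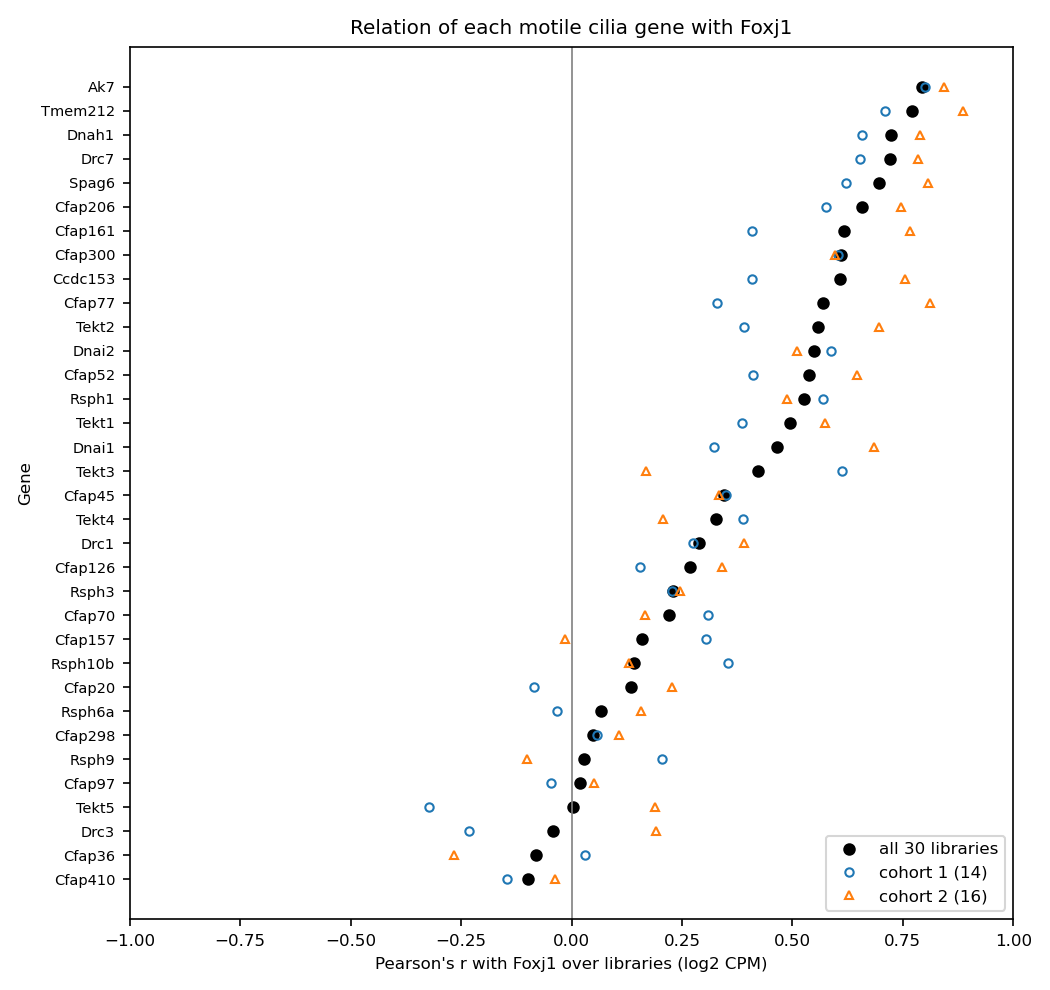
Pearson's r of each of 34 genes with Foxj1 on log2 CPM, over all 30 libraries and within cohort 1 (14 libraries) and cohort 2 (16 libraries). Ak7, Tmem212, Dnah1 and Drc7 lie above 0.6 in each of the 3 sets, while Cfap410 and Cfap36 lie just below 0 over all 30 libraries.

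For genotype, the gene with the smallest p was Cfap77, a protein inside the doublet. It stood at 0.648, 1.18 and 1.99 CPM (lowest, median and highest) in the 15 wildtype libraries and at 0.275, 0.853 and 1.82 in the 15 alzheimer libraries. The alzheimer libraries were lower in the middle of their range, and the groups overlapped. Its log2 difference, alzheimer minus wildtype and averaged over sex and diet, was -0.67 ± 0.22 (SE; 95% interval -1.13 to -0.22), with an adjusted p of 0.0568 by edgeR's quasi-likelihood test with Benjamini-Hochberg adjustment over all genes. Cfap206 had -0.72 ± 0.27 (adjusted p = 0.0980) and Dnai1 -0.29 ± 0.12 (adjusted p = 0.119), with Dnai1 at 2.05, 3.37 and 5.02 CPM in wildtype and 1.71, 2.96 and 3.85 in alzheimer libraries. Cfap410 had -0.085 ± 0.034, Spag6 -0.50 ± 0.20, Ak7 -0.47 ± 0.19 and, in the other direction, Rsph10b 0.15 ± 0.062 (adjusted p = 0.120, 0.121, 0.125 and 0.132). Foxj1 stood at 3.34, 6.13 and 10.3 CPM in wildtype and 3.10, 5.40 and 9.22 in alzheimer libraries, a log2 difference of -0.15 ± 0.13 (95% interval -0.41 to 0.11, adjusted p = 0.531).

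No motile cilia gene passed an adjusted p of 0.05 for genotype by edgeR, against 8.03% of all tested genes. DESeq2 and limma-voom each called 1, Cfap77, with adjusted p = 0.0380 and 0.0213. At an unadjusted p under 0.05 edgeR listed 9 of the 35, 25.7%, near the 22.3% of all genes. At that p 8 of the 35 were lower in alzheimer libraries, against 10.7% of all genes (1337 lower and 1455 higher). The point estimate was lower for 26 of the 35, 74.3%, against 48.9% of all genes, with a median of -0.154 against 0.002. With 1 library left out, the median ran from -0.192 to -0.0857, the latter without female alzheimer western 18, and the count at that p from 6 to 14, the latter without female wildtype chow 9. By role, point estimates were lower for 5 of 5 tektins (median -0.226, with Tekt1 at -0.008 and above 0 by limma-voom, in cohort 1 alone and without libraries 18 and 23), for 3 of 3 of Ak7, Ccdc153 and Tmem212 (median -0.336), for 9 of 14 Cfap genes (median -0.034) and for 2 of 5 radial spoke genes (median 0.020). Among the 14 wide genes 13 had lower point estimates, with a median of -0.404, and among the other 21 it was 13, with a median of -0.032.

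The genotype values depended on single libraries. Without libraries 18 and 23, an alternative chosen after seeing the data, 4 of the 35 had an unadjusted p under 0.05, the median was -0.109, and Cfap77 had -0.51 (adjusted p = 0.176), Cfap206 -0.47 (0.234) and Ak7 -0.28 (0.327) by edgeR. Cfap77 passed by edgeR without female alzheimer western 11 (adjusted p = 0.0420), female alzheimer chow 19 (0.0331), male wildtype western 24 (0.0461), male wildtype chow 26 (0.0486), male alzheimer western 28 (0.0488) or male alzheimer chow 30 (0.0134). Cfap410 passed without male alzheimer chow 8 (adjusted p = 0.0481). Without the 3 libraries highest in choroid markers, Cfap77 had -0.92 ± 0.23 (adjusted p = 0.0121) and Dnah1 -0.62 ± 0.19 (adjusted p = 0.0380). The alzheimer libraries had a choroid marker sum of 28.1 to 100.7 CPM with a median of 34.8, and the wildtype libraries 25.6 to 70.4 with a median of 36.2. The part of choroid tissue in these values was otherwise not tested.

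**Figure D4:**
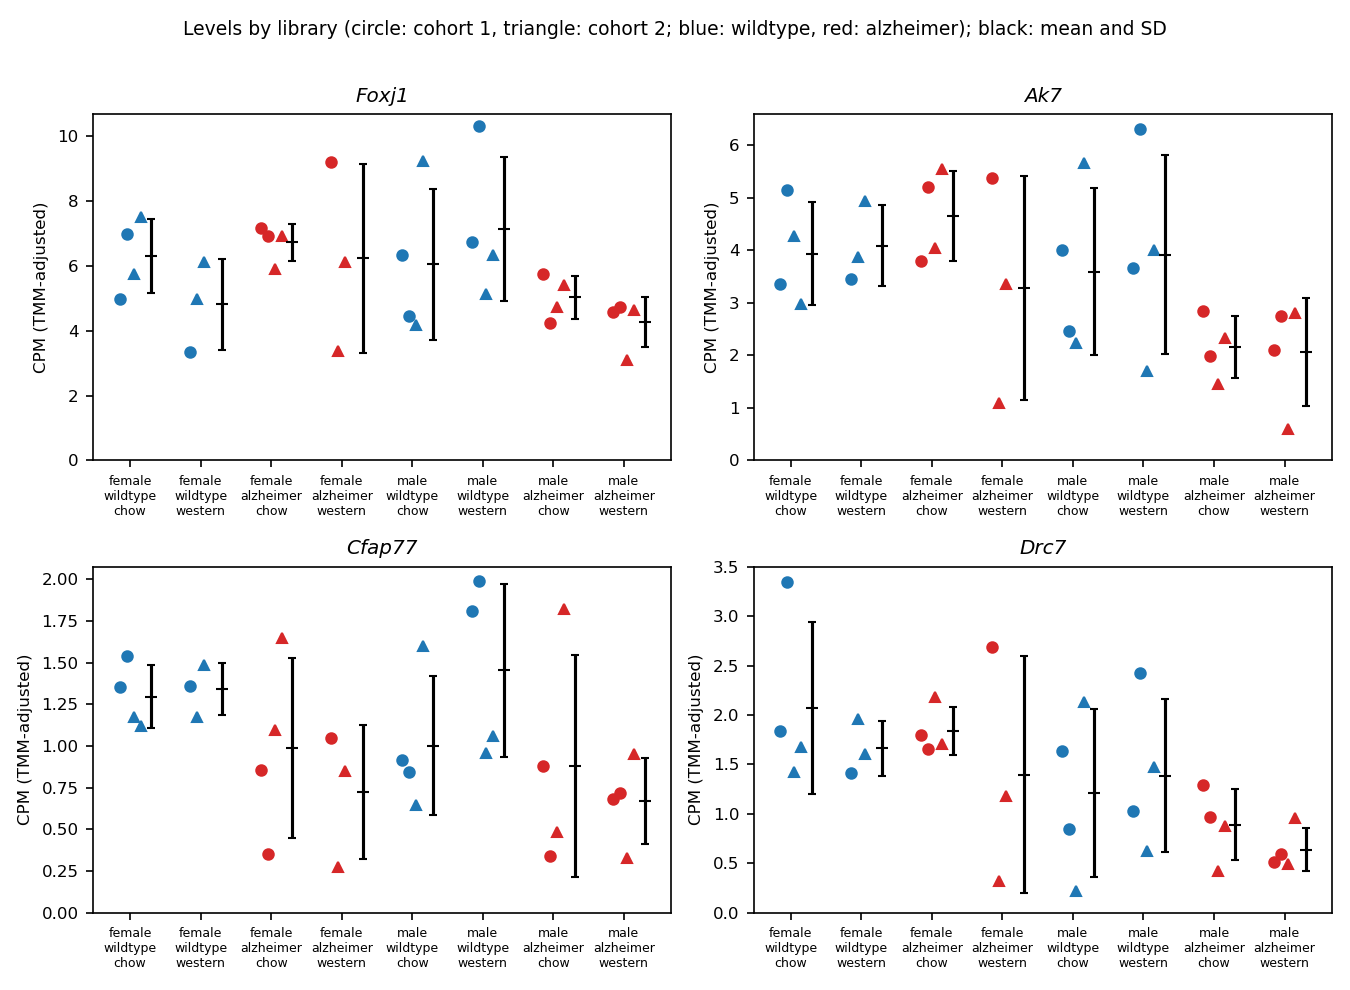
CPM of Foxj1, Ak7, Cfap77 and Drc7 in each of the 30 libraries by group (circles cohort 1, triangles cohort 2, blue wildtype, red alzheimer, black bars mean and SD). Ak7 reaches its lowest value, 0.598 CPM, in male alzheimer western 23 and its highest, 6.30, in male wildtype western 5.

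Split by sex, point estimates were lower in alzheimer libraries for 28 of 35 genes in males (80%) and 27 in females (77.1%). Of all genes 48.7% and 48.5% were lower. The medians of the 35 were -0.154 and -0.087, and the median of the interaction was 0.032. Ak7 and Foxj1 were picked for small interaction p-values by edgeR, so a difference in genotype value between the sexes follows from that choice. For Foxj1 the point estimates in males and females had opposite signs. In males Ak7 stood at 4.0, 2.47, 2.23 and 5.66 CPM in wildtype chow, 3.67, 6.30, 1.70 and 4.0 in wildtype western, 2.85, 1.99, 1.46 and 2.32 in alzheimer chow and 2.10, 2.75, 0.598 and 2.80 in alzheimer western libraries. All 8 male alzheimer libraries lay below 3 CPM, with 3 of the 8 male wildtype libraries in the same range. The log2 difference in males was -0.86 ± 0.27 for Ak7 (adjusted p = 0.111) and -0.52 ± 0.18 for Foxj1 (adjusted p = 0.155) by edgeR. In females it was -0.076 ± 0.26 for Ak7 and 0.21 ± 0.18 for Foxj1 (adjusted p = 0.628). The interaction itself, the female minus the male difference, was 0.73 ± 0.25 for Foxj1 (95% interval 0.21 to 1.25, unadjusted p = 0.00699), 0.78 ± 0.37 for Ak7 (unadjusted p = 0.0449) and 0.19 ± 0.064 for Cfap70 (unadjusted p = 0.00531) by edgeR, each with an adjusted p of 0.999. Without libraries 18 and 23, Ak7 had -0.70 ± 0.22 in males and 0.13 ± 0.22 in females, Foxj1 had -0.46 ± 0.16 and 0.37 ± 0.17, and the interaction was 0.83 ± 0.24 for Foxj1 and 0.84 ± 0.31 for Ak7, again with an adjusted p of 0.999 by edgeR. Those 3 of 35, 8.57%, compare with 4.21% of all genes at that p. In males 6 of 35 (17.1%) had an unadjusted p under 0.05, all lower, against 13.1% of all genes. With 1 library left out this count ran from 2 to 9. It was 2 without male wildtype western 5 and 3 without male alzheimer western 23 or male alzheimer chow 25. In females 4 genes (11.4%), 2 of them lower, had such a p with all libraries, against 16.2% of all genes. That count was 1 without female wildtype western 17, 2 without female wildtype chow 13 and 8 without female alzheimer western 11. None passed the adjusted threshold by edgeR in either sex, against 1.25% of all genes in males and 2.57% in females, and DESeq2 and limma-voom called none.

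Split by diet, point estimates for genotype were lower for 24 of 35 genes on chow (68.6%) and 26 on western (74.3%). On each diet 48.8% of all genes were lower. The medians of the 35 were -0.083 on chow and -0.107 on western, and the median of the interaction was -0.017. The smallest adjusted p by edgeR was 0.388 on chow, and smaller values were found on western. There, Cfap206 had a log2 difference of -1.19 ± 0.38 (adjusted p = 0.0775), Cfap77 -1.03 ± 0.33 (0.0786) and Spag6 -0.80 ± 0.29 (0.131) by edgeR. Cfap206 stood at 1.22, 1.99, 0.396, 1.47, 1.08, 1.46 and 1.90 CPM in the 7 wildtype western libraries and at 0.454, 0.778, 0.637, 1.34, 0.183 and 0.900 in 6 of the 7 alzheimer western ones, with no count in library 23. The groups overlapped through male wildtype western 24 and female alzheimer western 11, and Cfap206 passed by edgeR without either of these (adjusted p = 0.0399 and 0.0490). On western 9 of 35 genes, 25.7%, had an unadjusted p under 0.05, 8 of them lower, against 16.8% of all genes. Without libraries 18 and 23 it was 3, with Cfap206 at -0.71 ± 0.33 and Cfap77 at -0.69 ± 0.33 (adjusted p = 0.327 and 0.353), and it was 4 without male wildtype western 5 or female alzheimer western 18. With 1 library left out this count ran from 4 to 11. On chow 2 genes had such a p with all libraries, both lower, or 5.71% against 11.3% of all genes. By edgeR none passed the adjusted threshold on western, where 3.17% of all genes did, nor on chow, where 0.901% did. Limma-voom called Cfap77 and Cfap206 on western (adjusted p = 0.0408 and 0.0445), and DESeq2 called none on either diet. The genotype by diet interaction had 1 of 35 genes at an unadjusted p under 0.05, Ccdc153 at -0.66 ± 0.32 (unadjusted p = 0.0466, adjusted p = 1.0), against 3.55% of all genes, and 0% of all genes passed it after adjustment.

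Between the sexes, Drc7 had the smallest p. It stood at 0.216, 0.917 and 2.42 CPM (lowest, median and highest) in the 16 male libraries and at 0.321, 1.69 and 3.34 in the 14 female ones. Female libraries were higher in the middle of the range, and the lowest female value was library 18. The log2 difference, female minus male, was 0.81 ± 0.23 (95% interval 0.33 to 1.29, adjusted p = 0.0806) by edgeR. Ccdc153 stood at 1.09, 2.36 and 4.94 CPM in males and 1.01, 3.44 and 4.67 in females, a difference of 0.48 ± 0.16 (adjusted p = 0.139). Rsph1 stood at 2.16, 3.08 and 4.51 CPM in males and 2.90, 3.87 and 4.70 in females, a difference of 0.28 ± 0.094 (adjusted p = 0.141). Ak7 and Dnah1 each had 0.50 ± 0.19 (adjusted p = 0.183 and 0.188), and Foxj1 had 0.12 ± 0.13 (adjusted p = 0.733).

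No motile cilia gene passed for sex by edgeR, against 0.837% of all tested genes, while DESeq2 and limma-voom each called 1, Drc7 (adjusted p = 0.0332 and 0.0410). Drc7 also passed by edgeR without female alzheimer western 18 (adjusted p = 0.0261), without male wildtype chow 29 (0.0239) and without libraries 18 and 23 together (0.90, adjusted p = 0.0372), and had 0.63 (adjusted p = 0.319) without the 3 libraries highest in choroid markers. At an unadjusted p under 0.05 there were 10 of 35, 28.6%, against 14.8% of all genes. That count was 4, below the share of all genes, without female alzheimer western 11 and 16 without female alzheimer western 18. At that p 9 of the 35 were higher in females, against 7.65% of all genes (960 higher and 896 lower). Cfap97 was lower at -0.11 ± 0.047. The point estimate was higher in females for 26 of 35, 74.3%, against 48.3% of all genes, with a median of 0.121 against -0.002, which was 0.184 without female alzheimer western 18 and 0.189 without male wildtype chow 29. In cohort 1 alone there were 10 genes at that p and in cohort 2 alone 4, with Drc7 at 0.92 and 0.68. The choroid marker sum had a median of 41.6 CPM in female and 33.9 in male libraries, and its part in the sex values was not tested beyond the 3 libraries left out. Of 15 tested choroid markers 2 had an unadjusted p under 0.05 for sex by edgeR (median 0.148, none called). Markers of other neighbouring tissue were read for sex too. Of 9 thalamus markers 5 had an unadjusted p under 0.05 (median 0.283, none called). Their sum had a median of 96.9 CPM in female libraries (82.6 to 117.4) and 91.8 in male ones (78.5 to 104.8). Of 10 tested meninges markers 5 were under that p (median 0.091, none called). Their sum had medians of 84.3 CPM (74.7 to 120.03) in female and 81.9 (69.0 to 101.1) in male libraries. The astrocyte list had 5 of 11 at that p, with Sox9, which ependymal cells also express, called higher in females at 0.24 (adjusted p = 0.0186 by edgeR). Sox9 was also called for the diet by sex interaction at -0.49 ± 0.10 (adjusted p = 0.0113 by edgeR). Its female minus male value was thus smaller on western than on chow. The part of these other tissues in the sex values was not tested.

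For diet, the 3 smallest p-values belonged to Rsph6a, a spoke head protein best known from sperm, at -0.27 ± 0.14 (western minus chow), Tmem212 at -0.34 ± 0.18 and Drc1 at -0.11 ± 0.068, with unadjusted p = 0.0575, 0.0651 and 0.110 and adjusted p from 0.914 to 0.930 by edgeR. None of the 35 had an unadjusted p under 0.05, against 5.55% of all genes, none passed after adjustment, against 0.00797%, and DESeq2 and limma-voom called none. Point estimates were lower on western for 23 genes and higher for 12, or 65.7% lower against 50.8% of all genes. The median was -0.023, and ran from -0.048 to 0.003 with 1 library left out. The diet by sex interaction had 3 of 35 genes at an unadjusted p under 0.05, 8.57% against 14.7% of all genes, all with a lower western minus chow value in females than in males. They were Rsph6a at -0.72 ± 0.27 (adjusted p = 0.197), Cfap45 at -0.65 ± 0.25 (0.216) and Rsph3 at -0.34 ± 0.15 (0.278) by edgeR. None passed for that interaction, against 1.23% of all genes. Its point estimate was lower for 28 of 35 genes, 80%, against 51.6% of all genes. The median was -0.133 against -0.004, and ran from -0.207 to -0.039 with 1 library left out. None passed for diet within males (0.128% of all genes), within females (0.183%), within wildtype (0%) or within alzheimer rats (0%), nor for the genotype by sex (0%) and 3-way (0%) interactions, and DESeq2 and limma-voom called none there.

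**Figure D5:**
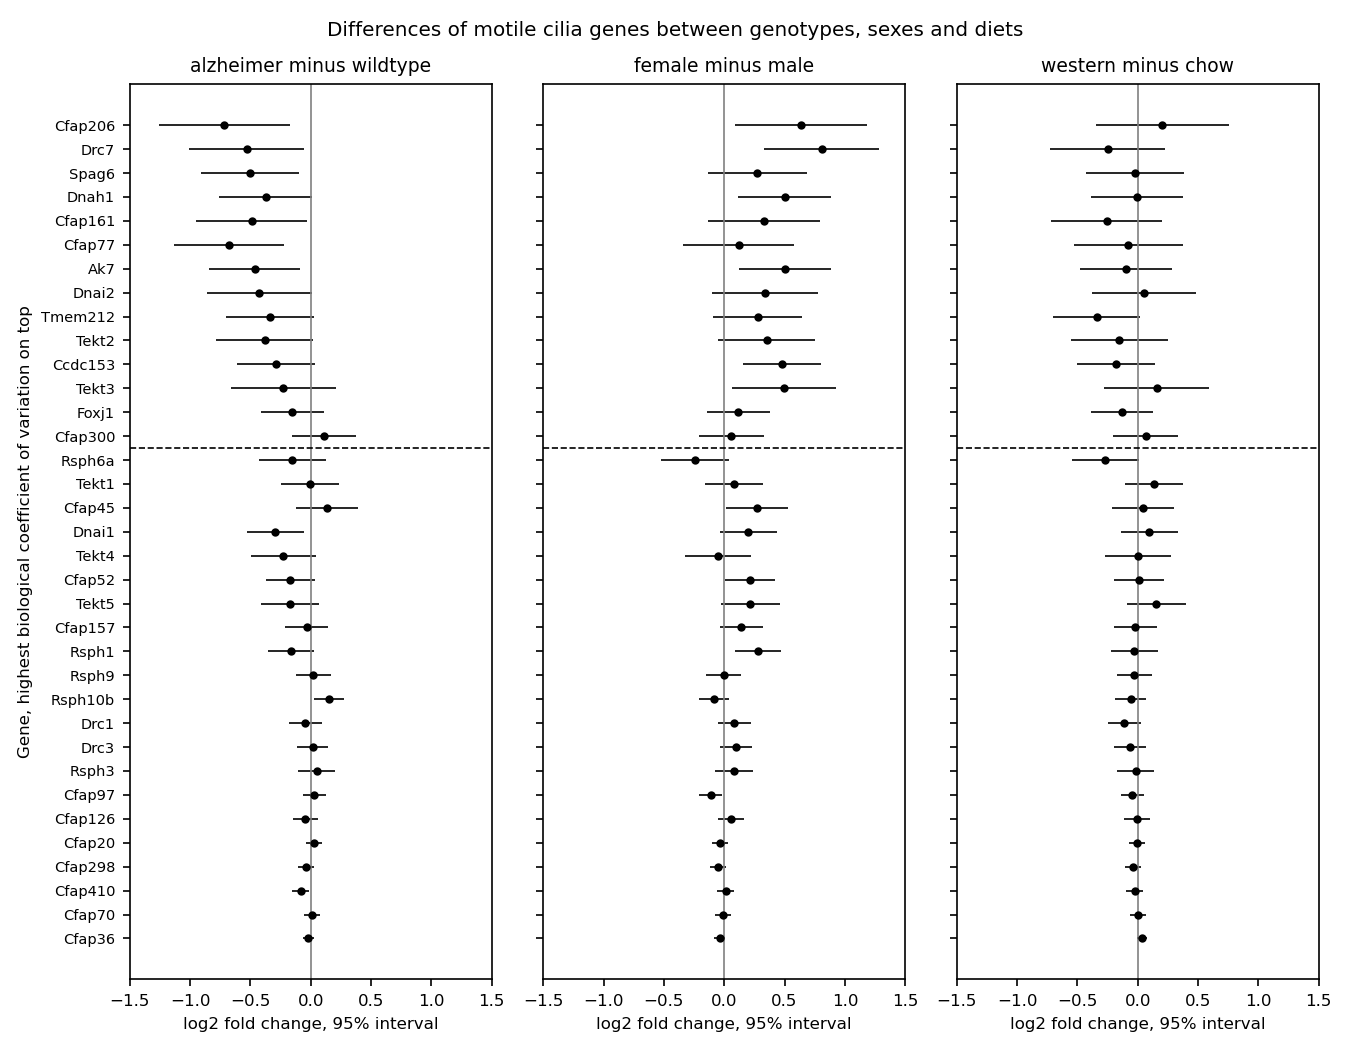
Log2 differences with 95% intervals for each of the 35 tested genes, for genotype (alzheimer minus wildtype), sex (female minus male) and diet (western minus chow). Cfap77 and Cfap206 lie farthest left for genotype and Drc7 farthest right for sex, and the narrow intervals belong to genes of low spread such as Cfap36.

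Other genes of the ciliary pathway were read from lists drawn up by role, against the same shares of all genes as above: for genotype 8.03% passed and 22.3% had an unadjusted p under 0.05, and for sex 0.837% and 14.8%. The counts of genes that passed for genotype, 1 of 11 regulators, 2 of 39 axonemal and 3 of 28 transport genes, lay near or below that share. Of ciliogenesis regulators beside Foxj1, 11 of 23 could be tested, and by edgeR 1 passed for genotype, the MYC family factor Mycl, which rose by 0.17 ± 0.053 (adjusted p = 0.0400). Of genes for dynein arm assembly and docking, 19 of 33 were tested and none passed, with 2 at an unadjusted p under 0.05 for genotype (median -0.028) and 7 for sex (median 0.098). That list includes Wdr63 and Wdr78, older symbols of Dnai3 and Dnai4, whose names today would match the set. Of other axonemal genes, 39 of 66 were tested. Among them Vwa3a was higher in alzheimer libraries by 0.35 ± 0.071 (adjusted p = 0.00165) and Stoml3, a stomatin-like membrane protein, was lower at -0.88 ± 0.27 (adjusted p = 0.0356). Their median was -0.056 for genotype and 0.080 for sex. Of the intraflagellar transport genes, which also serve non-motile cilia, all 28 with a row of the 37 listed were tested. Wdr35 rose by 0.11 ± 0.032 (adjusted p = 0.0337), Ttc26 rose by 0.16 ± 0.052 (0.0456) and Ift27 was lower at -0.19 ± 0.058 (0.0355), with a median of 0.022 for the list. The motor subunit Kif3a was lower in females at -0.11 ± 0.027 (adjusted p = 0.0481). Of the BBSome, 10 of 13 were tested and none passed by edgeR for genotype, diet or sex, with 0, 1 and 2 at an unadjusted p under 0.05.

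Lists of cell type markers were read in the same way. Of ependymal genes outside the cilium, 8 of 10 were tested and none passed for genotype, diet or sex by edgeR, with 2, 0 and 3 at an unadjusted p under 0.05, and Rarres2 had -0.070 ± 0.079 for genotype. Sox2, which marks ependymal cells, astrocytes and stem cells alike, was called for the diet by sex interaction at -0.40 ± 0.081 (adjusted p = 0.00584). So were the astrocyte marker Sox9 at -0.49 (adjusted p = 0.0113) and the hippocampal neuron marker Neurod2 at 0.23 (0.0329) by edgeR, where 1.23% of all genes passed. Of choroid plexus markers, 15 of 23 were tested and Wfdc2 was higher in alzheimer libraries by 0.39 ± 0.12 (adjusted p = 0.0434). Ttr had -1.14 ± 0.38 for diet (adjusted p = 0.822) and -0.11 ± 0.38 for genotype. For genotype, 5 of 12 hippocampal neuron markers passed (3 higher, 2 lower), 4 of 11 astrocyte markers (Gfap higher at 0.17, and Slc1a3, Aldoc and S100b lower), 1 of 10 pan-neuronal, 1 of 13 neural stem cell and neuroblast markers, and none of 9 thalamus and 10 meninges markers, with 0 and 1 at an unadjusted p under 0.05. With Foxj1, the median r was 0.565 over the 19 dynein arm assembly genes, 0.434 over the 39 other axonemal genes, 0.332 over the 15 choroid markers, 0.307 over the 9 thalamus markers, 0.260 over the 10 meninges markers and 0.163 over the 8 ependymal genes outside the cilium. It was 0.063 over the 28 intraflagellar transport genes, 0.012 over the 10 BBSome genes, 0.012 over the 11 astrocyte markers, 0.082 over the 13 neural stem cell and neuroblast markers, -0.019 over the 11 ciliogenesis regulators, -0.217 over the 12 hippocampal neuron markers and -0.285 over the 10 pan-neuronal markers. The lists were drawn up with results of these data known, and these medians describe the 30 libraries only.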

How the data were processed

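RNA of 30 dorsal hippocampus samples was polyA-selected and sequenced. Per the submitters' processing notes, cutadapt and STAR 2.7.0a were used, and the authors deposited raw read counts per gene symbol for all 30 libraries in 1 table. Neither the counting tool and its use of strand nor the build is named in the sources used here. Library totals ran from 13931152 to 31418405 counts, so that 1 CPM is worth 13.9 to 31.4 counts.

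Of 17455 genes, 12547 passed filterByExpr of edgeR 4.0.16 (R 4.3.3; minimum count 10, minimum total 15). Counts were scaled by TMM and fitted with a coefficient for each of the 8 groups plus cohort. The quasi-likelihood F test gave 15 contrasts, with Benjamini-Hochberg adjustment over all tested genes and a threshold of 0.05. DESeq2 1.42.0 and limma 3.58.1 (voom with quality weights) were alternatives, beside other scalings, filters, cohorts and left-out libraries. Groups came from the labels of each sample. Standard errors are those of edgeR's fit, values per library are TMM-scaled CPM, and the limit for a gene with no count is 3 counts of the library total. Relations with Foxj1 used log2 CPM (prior count 2) and permutation of the libraries. They were added after the data were seen. Intervals cover the spread between libraries, not processing error.

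The named genes were Foxj1, the member with the highest mean CPM in each role, members that passed for genotype, diet or sex, the 3 smallest p-values in each of these and in the 2-way interactions, the 3 widest and the 3 narrowest spreads, and, outside the set, Ttr, Rarres2, App and up to 4 genes of each ciliary pathway list that passed for genotype, diet or sex. Any other gene was named after its values were seen. The members and lists were chosen with earlier results of these data known. Promoter sequences are those of RefSeq for GRCr8, of which 7 members had none.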

Additional observations from a re-analysis of the deposited data

Results flagged for a closer look

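Within groups of 4 libraries, 1 library lay far from the other 3 in 7 of 120 combinations of group and named gene, by Dixon's test at 95% (critical value 0.829), and chance flags about 1 in 20. In male alzheimer western rats, library 23 was lowest for Foxj1 at 3.10 CPM, with the others at 4.59 to 4.73, and for Dnai1 at 2.12, with the others at 3.06 to 3.23. In female wildtype chow rats, library 13 was highest for Dnai1 at 5.02 CPM, with the others at 3.08 to 3.19, and lowest for Cfap410 at 30.6, with the others at 35.1 to 36.0. In male alzheimer chow rats, library 30, the one with the highest choroid marker sum, was highest for Drc1 at 13.6 CPM, with the others at 10.1 to 10.4, and for Rsph10b at 32.7, with the others at 23.96 to 24.4. In male wildtype western rats, library 5 was highest for Rsph1 at 4.51 CPM, with the others at 2.88 to 3.06.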

How the results depend on the processing

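No paired analysis was made, since the labels do not say which libraries would form pairs. The count of members called moved from 0 in these cases, and the cause was not tested. Testing all genes with at least 1 count gave 3 for genotype (Cfap77, Ak7 and Spag6), 1 for sex (Drc7), 2 for genotype on western and 1 for genotype in males (Ak7). A filter at 1 CPM in 8 libraries gave 1 for genotype. DESeq2 gave 1 for genotype and 1 for sex, and voom 1, 1 and, on western, 2. Leaving out the 3 libraries highest in choroid markers gave 2 for genotype, and leaving out libraries 18 and 23 gave 1 for sex. Leaving out single libraries gave 0 to 1 for genotype, for sex and for genotype on western. The other 153 of 165 counts, and 439 of 450 with 1 library left out, stayed at 0.

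Cfap77 for genotype ran from -0.823 to -0.573 with 1 library left out (adjusted p 0.0134 to 0.123), and Drc7 for sex from 0.613 to 0.973 (0.0239 to 0.307). The following log2 differences, none of them called, changed sign. DESeq2 gave Dnah1 0.00287 for diet. Voom gave Tekt1 0.00389 for genotype, and for diet Spag6 0.103 and Dnah1 0.0245. Cohort 1 alone gave, for genotype, Foxj1 0.176, Drc1 0.0284 and Tekt1 0.0480, for diet Foxj1 0.0221, Spag6 0.222, Dnah1 0.323, Drc1 0.00414, Ak7 0.148 and Rsph10b 0.000911, and for sex Rsph10b 0.0725. Cohort 2 alone gave Cfap70 -0.00290 for genotype, Dnai1 -0.0198 and Tekt1 -0.0470 for diet and Drc1 -0.0143 for sex. Without libraries 18 and 23, Tekt1 had 0.0610 for genotype, and for diet Spag6 had 0.134, Dnah1 0.155 and Ak7 0.0732. With 1 library left out, genotype values ran from -0.00679 to 0.0158 for Cfap70 and from -0.0505 to 0.0743 for Tekt1, and diet values from -0.163 to 0.122 for Dnah1, from -0.110 to 0.171 for Spag6 and from -0.218 to 0.0116 for Ak7. Depth limits genes near 1 CPM most, such as Cfap206, Cfap77 and Drc7.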

Other observations

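All tested genes other than Foxj1, those of the set included, were ranked by their r with Foxj1 over the 30 libraries. The rule was added after the values were seen, so the names are a description. Beside Ak7 and Tmem212, the 5 highest were Tnnt1, a slow-muscle troponin, at 0.781, Ccdc114, a docking protein of the outer dynein arm, at 0.759, and Anxa1, a calcium-binding annexin, at 0.753. Of the 50 highest genes, 6 were motile cilia genes of the set, 5 belonged to the dynein arm assembly and docking list, 4 were other axonemal genes, and 31 were in no list. Among those 5 was Wdr63, an older symbol of Dnai3. Folr1, the folate receptor of choroid epithelium, had 0.664, and Vim, the vimentin of ependymal cells and other glia, had 0.651, while the thalamus marker Six3 had 0.635. An r of 0.5 or more was reached by 10 of the 19 dynein arm assembly genes, 13 of the 39 other axonemal genes, 3 of the 15 choroid markers, 3 of the 9 thalamus markers, 2 of the 8 ependymal genes outside the cilium, 1 of the 28 intraflagellar transport genes and none of the 10 BBSome genes or the 10 meninges markers.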
